A study of Xenopus tropicalis with 4 samples.

Results

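The genes described here charge transfer RNAs with amino acids or modify transfer RNA bases. They were taken by symbol from the RefSeq protein-coding genes of Xenopus tropicalis: names of the form aars1 or aars2 for the aminoacyl-tRNA synthetases, names that begin with trmt, pus, adat or elp and a number, and in addition eprs1, farsa, farsb, aimp1 and aimp2. The rule found 70 of the 21749 protein-coding genes on the 10 chromosomes. They were 21 cytosolic and 17 mitochondrial synthetases, 2 scaffold proteins, 17 genes of the trmt family, 5 pseudouridine synthases, 2 adenosine deaminases and 6 subunits of Elongator.

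Chromatin immunoprecipitation with sequencing mapped where E2F1 and OTX1 lay on DNA in whole embryos at stage 8, a blastula stage. In the E2F1 group, called E2F1 Rescue by the labels, both libraries came from embryos that had received E2F1 mRNA together with MO, and the antibody recognised the HA tag. In the OTX1 group, called OTX1 Rescue, both libraries came from embryos that had received OTX1 mRNA together with MO, and the antibody recognised the Myc tag. An MO, commonly a morpholino, is an antisense oligonucleotide that blocks an mRNA, and which mRNA it was aimed at is not in the labels. Both proteins were therefore supplied by injection, and the maps are of injected factors at the dose used. No label states that the replicates came from separate batches of embryos, so differences between them may be technical.

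Each aminoacyl-tRNA synthetase joins one amino acid to its tRNAs. Most amino acids have a cytosolic and a mitochondrial enzyme encoded by separate nuclear genes. After transcription, tRNAs are methylated, isomerised to pseudouridine and deaminated to inosine, and Elongator begins a modification of the wobble uridine that aids decoding. Early frog embryos run on maternal mRNA and protein, and their own transcription rises during the blastula stages. E2F proteins are best known as activators of genes for DNA synthesis and the cell cycle, and OTX1 is a homeobox protein.

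The 4 deposited peak lists held 16770 and 20385 peaks for E2F1 and 27755 and 29098 for OTX1. Median summits rested on 15 to 16 fragments. Overlapping peaks of both lists of a factor were joined, which gave 13201 reproducible E2F1 regions and 17760 reproducible OTX1 regions on the chromosomes. The fold of a peak is the authors' enrichment ratio, summit signal over local background, and a fold percentile is its rank among the peaks of its own list. A region was counted at a gene end when its summit lay within 1 kb of the lower or upper annotated end of the gene. The gene table has no strand, so a start and a finish of a gene could not be separated.

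E2F1 lay at an end of most of these genes. Of the 70, 49 (70%) had a reproducible E2F1 region within 1 kb, against 34.8% of the 21679 other protein-coding genes. Many of the other genes carry only a locus number, and among the 15523 with a symbol the share was 45.2%. Within 5 kb the count was 54 (77.1%), against 43.5% of other genes and 53.9% of those with a symbol. The extra 5 genes were farsb, trmt10c, trmt2b, trmt61b and pus1. OTX1 lay within 1 kb of 3 of the 70 (4.29%), against 7.19% of other genes and 8.45% of those with a symbol. Within 5 kb it lay at 15 (21.4%), close to the 22.0% of other genes and the 25.0% of those with a symbol. These shares describe a list picked with earlier results of these data in view, and no test of the list was made.

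Distance showed the same contrast. The nearest E2F1 summit lay a median of 187 bp from an end of the 70 genes, against 9557 bp for other genes and 3033 bp for those with a symbol. For OTX1 the medians were 20988, 20558 and 16465 bp. Within 300 bp of an end, 61.4% of the 70 genes had an E2F1 summit, against 28.2% of other genes and 37.0% of those with a symbol. For OTX1 the shares at that distance were 2.86%, 3.47% and 4.13%, close to one another.

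**Figure D1:**
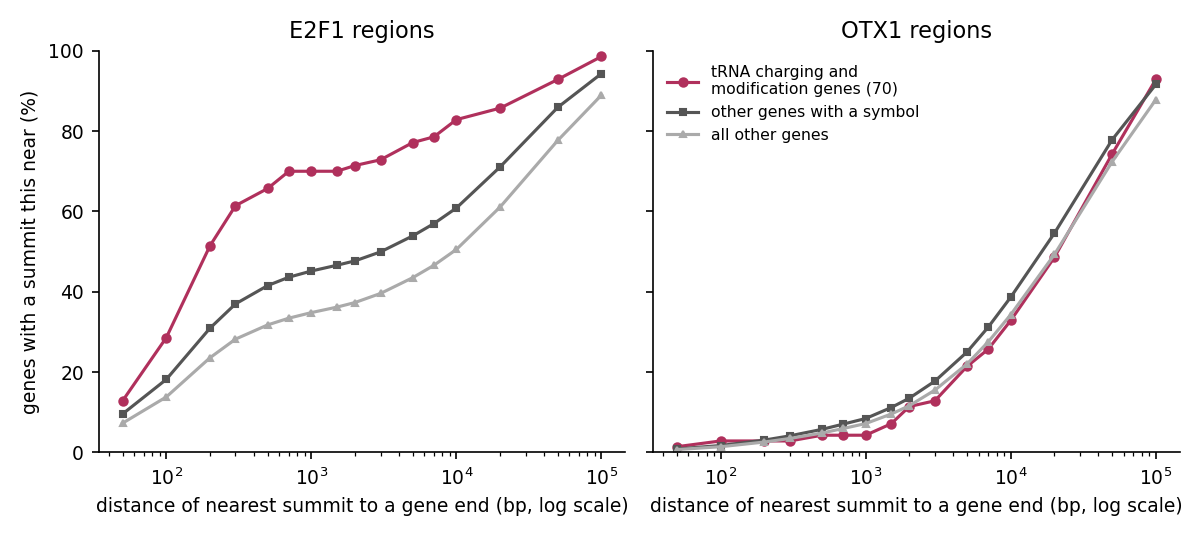
Share of genes (%) whose nearest reproducible E2F1 or OTX1 summit lies within a given distance of a gene end (bp, log scale), for the 70 tRNA charging and modification genes, other genes with a symbol and all other genes. The E2F1 curve of the 70 genes reaches 70% by 1 kb and lies above both others, whereas the OTX1 curves run close together.

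In each single E2F1 library the share was again above that of other genes. A peak summit within 1 kb was present at 53 of the 70 genes (75.7%) in E2F1 replicate 1 and at 55 (78.6%) in E2F1 replicate 2, where 37.3% and 41.4% of other genes had one. In OTX1 replicate 1 it was present at 9 (12.9%), level with the 12.6% of other genes, and in OTX1 replicate 2 at 6 (8.57%), below the 11.8% of other genes. The groups of libraries did not overlap: E2F1 had 54 ± 1.41 genes (SD, n = 2) and OTX1 had 7.5 ± 2.12 (SD, n = 2). The difference of 46.5 genes had p = 0.33 in a two-sided exact permutation test, and 2 libraries a group can give no smaller value. The antibody, the injected mRNA and the calling threshold also differed between the factors and cannot be told apart from the factor in this difference.

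**Figure D2:**
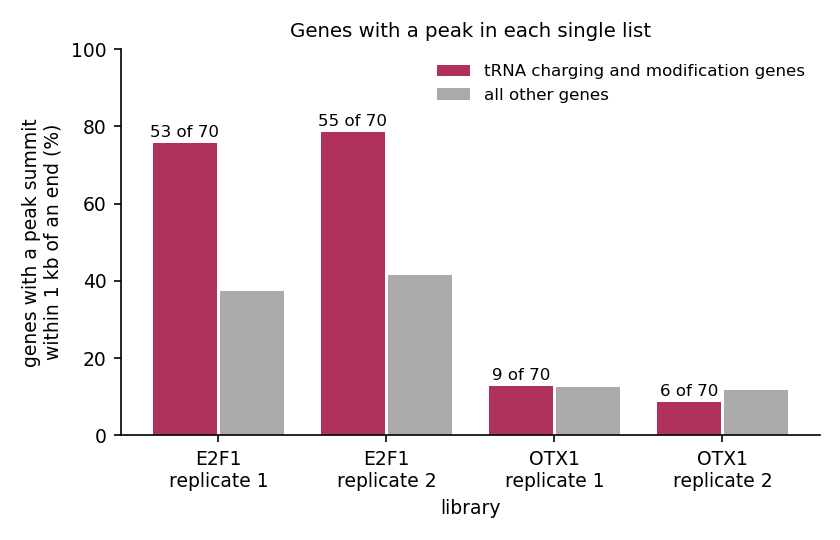
Share of the 70 tRNA charging and modification genes and of all other genes (%) with a peak summit within 1 kb of an end, in each of the 4 peak lists, with the number of the 70 genes above each bar. The E2F1 libraries reach 53 and 55 of 70, and the OTX1 libraries reach 9 and 6.

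Where E2F1 was present, its signal was of ordinary height for a gene end. Folds at the 49 genes ran from 3.52 to 19.5 in replicate 1, with a median of 6.41, and from 3.67 to 21.0 in replicate 2, with a median of 6.60. Other genes with E2F1 at an end had median folds of 6.24 and 6.79. The median of the mean fold percentile was 66.5 at the 49 genes and 67.0 at the others. A region above the 90th percentile of all E2F1 regions was found at 12 of the 49 (24.5%), against 14.7% of other genes with E2F1 at an end. Folds of the lists were ordered alike across the 49 regions, which are not independent replicates (Spearman correlation of 0.828, n = 49 regions in 2 libraries). Summit pileups, the numbers of overlapping fragments, ran from 9 to 116 in replicate 1 and from 11 to 154 in replicate 2, so the lowest regions rest on few fragments. With a −log10 q minimum of 5 in both lists, the share with E2F1 fell from 70% to 54.3% of the 70 genes and from 34.8% to 28.0% of other genes. The 11 regions lost were those of aimp1, farsa, iars2, mars1, nars1, pus10, pus7l, sars1, tars3, trmt1 and yars1. Among the tall ones, those of cars1, gars1, aars2, yars2 and trmt2a, with the lower ones of aars1 and cars2, lay where the local background was in the highest 10% of a list.

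**Figure D3:**
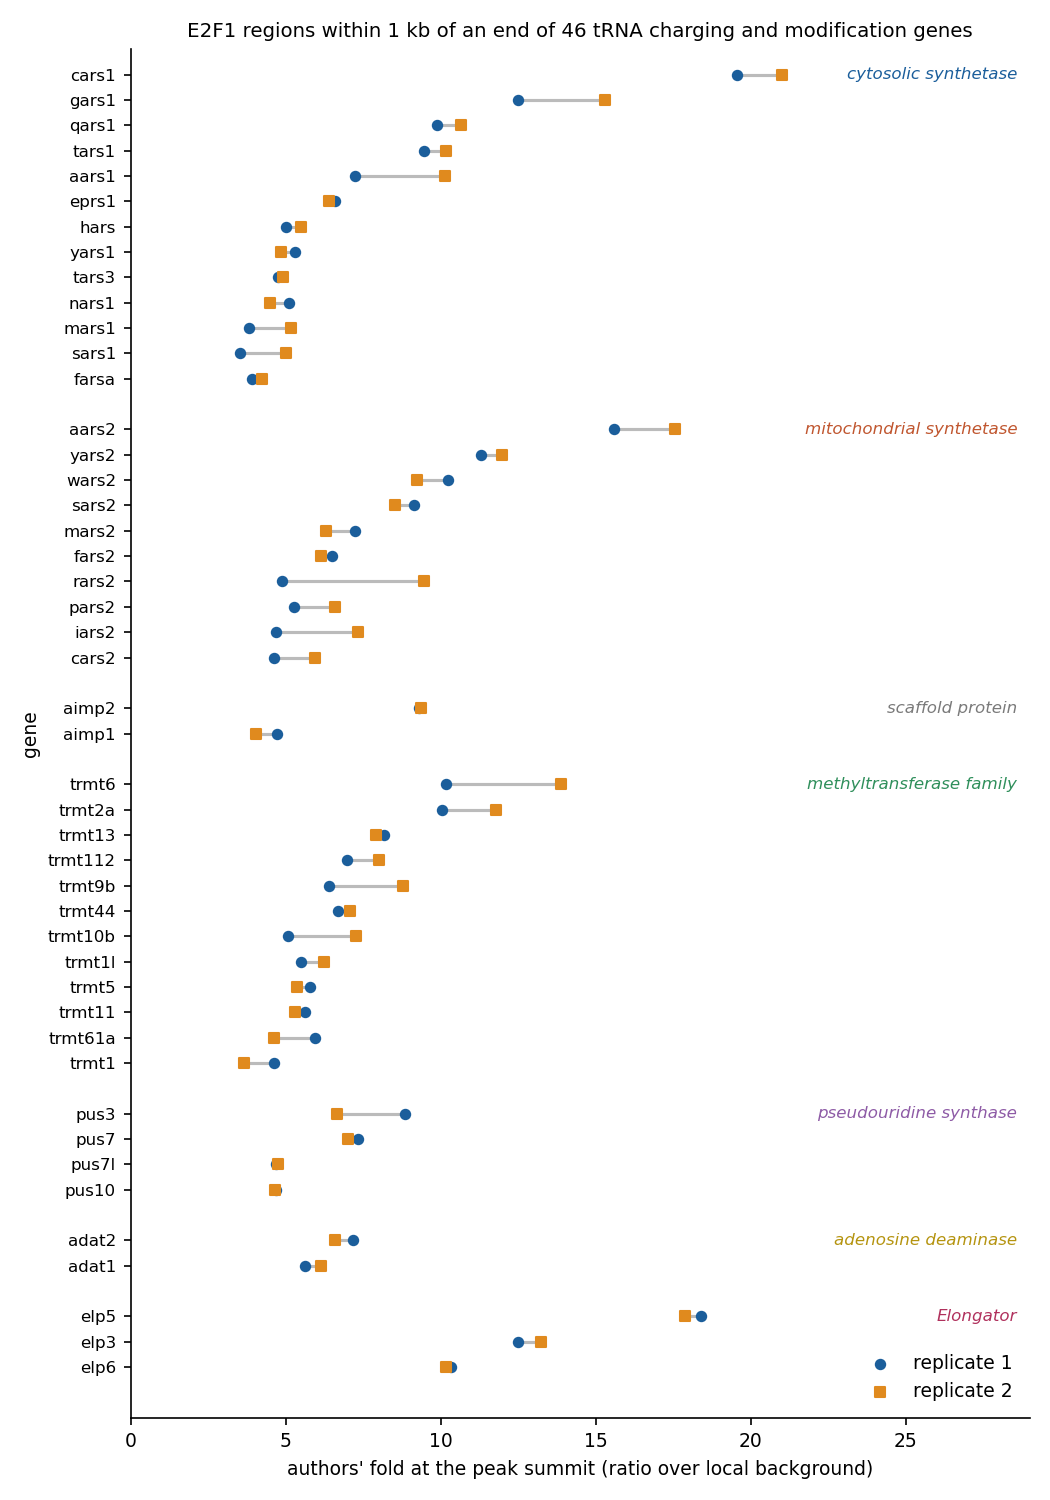
The authors' fold at the E2F1 summit (ratio over local background) in replicate 1 (circles) and replicate 2 (squares) for 46 of the 49 genes with a reproducible E2F1 region within 1 kb of an end, grouped by role. The genes cars1, elp5 and aars2 lie far to the right of most others in both libraries, and most genes lie between 4 and 10.

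The cytosolic synthetases held both the highest and the lowest of these regions. E2F1 was present at 14 of 21 (66.7%), against 34.8% of other genes and 45.2% of those with a symbol. The top was cars1, which charges cysteine, with folds of 19.5 and 21.0 in replicates 1 and 2 from pileups of 116 and 154 fragments (xenTr10, chromosome 4, 208425 to 209120). This region ranked 5 of all 13201 E2F1 regions, and its summit lay 249 bp outside the gene. Next was gars1, which charges glycine and in humans serves both the cytosol and mitochondria, with folds of 12.5 and 15.3 (chromosome 6, 7784501 to 7785357). The glutamine enzyme qars1 had 9.90 and 10.7, and the threonine enzyme tars1 had 9.46 and 10.2. In each list these 4 genes had higher folds than any other cytosolic synthetase, and each of the 4 had a mean fold percentile of at least 92.4.

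Below them stood the alanine enzyme aars1, with folds of 7.23 in replicate 1 and 10.1 in replicate 2, and eprs1, a fused enzyme for glutamate and proline, with 6.59 and 6.41. The next genes had mean fold percentiles under 50. Among them, hars for histidine had folds of 5.02 and 5.50, and yars1 for tyrosine had 5.31 and 4.86. For threonine, tars3, a paralogue of tars1, had 4.75 and 4.91, far below tars1 in each library. For asparagine, nars1 had 5.11 and 4.48, and mars1, for methionine, had 3.82 and 5.18. The serine enzyme sars1 had 3.52 and 5.01, with the summit 689 bp inside the gene. At the foot was farsa, the alpha subunit of the phenylalanine enzyme, with 3.92 and 4.24 from 11 fragments in each library. Its mean fold percentile, 14.3, was the lowest of the 49 genes.

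The 7 cytosolic synthetases without a reproducible region within 1 kb were farsb, iars1, kars1, lars1, rars1, vars1 and wars1. The beta subunit gene farsb had one 1804 bp from an end, with folds of 4.58 and 4.53, the first beyond the 1 kb window. For the leucine enzyme lars1 the nearest lay 9139 bp away, for the arginine enzyme rars1 28876 bp and for the isoleucine enzyme iars1 68060 bp. None of these 4 had an E2F1 peak within 1 kb in either list. The others had one in 1 list alone: kars1 (lysine) a fold of 4.21 and wars1 (tryptophan) 4.69 in replicate 1, and vars1 (valine) 6.94 in replicate 2. Their nearest reproducible regions lay 6808, 11514 and 7935 bp away.

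In animals several cytosolic synthetases, eprs1, mars1 and qars1 among them, are known as parts of a multisynthetase complex. E2F1 lay within 1 kb of 4 of the 8 cytosolic synthetase genes of this complex and of 10 of the 13 outside it. The share was 34.8% of other protein-coding genes and 45.2% of those with a symbol. The difference between genes of the complex and those outside it was not tested. The genes of the complex's scaffold proteins aimp1 and aimp2 both had an E2F1 region, which made 6 of 10 genes of the complex with them. At aimp2 the folds were 9.31 and 9.38, and at aimp1 they were 4.72 and 4.06.

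Mitochondrial synthetases carried E2F1 about as often, at 11 of 17 (64.7%), against 34.8% of other genes and 45.2% of those with a symbol. The leading gene was aars2, for alanine, with folds of 15.6 and 17.6 from 86 and 128 fragments (chromosome 5, 722069 to 722869), rank 52 of all E2F1 regions. The tyrosine enzyme yars2 followed with 11.3 and 12.0, then the tryptophan enzyme wars2 with 10.2 and 9.24, and the serine enzyme sars2 with 9.14 and 8.52. These 4 were high in both libraries. The others had mean fold percentiles from 44.0 (cars2) to 72.4 (mars2). At rars2 the libraries differed most in this class, with folds of 4.90 from 14 fragments in replicate 1 and 9.46 from 27 in replicate 2. In iars2 the replicate 1 summit held only 9 fragments, the lowest of the 49 genes.

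The mitochondrial enzymes without a reproducible region within 1 kb were ears2, hars2, lars2, nars2, tars2 and vars2. None of them had one within 5 kb of an end. Single lists held a peak at hars2 (fold 4.65, replicate 1) and at vars2 (4.15, replicate 2). Measured from the gene ends, the nearest summits lay at 7550 bp for vars2, 14765 bp for nars2 and 25757 bp for ears2. For lars2, hars2 and tars2 the distances were 30163, 53231 and 62647 bp. Inside lars2 lay 1 reproducible E2F1 summit, more than 1 kb from both ends.

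The cytosolic and mitochondrial enzymes of an amino acid were set side by side after the values were seen. E2F1 lay at genes of both compartments for alanine, cysteine, phenylalanine, methionine, serine and tyrosine. It was at the cytosolic gene alone for 4 (glutamate, histidine, asparagine and threonine) and at the mitochondrial gene alone for 3 (isoleucine, arginine and tryptophan). Leucine and valine had it at neither. Height did not always travel with the amino acid. The gene cars1 had folds of 19.5 and 21.0 where cars2 had 4.64 and 5.96, while yars1 had 5.31 and 4.86 where yars2 had 11.3 and 12.0. For alanine both were high, with mean fold percentiles of 85.5 at aars1 and 99.7 at aars2. At aars1, yars1 and yars2 the summit lay nearer to another gene's end, so these heights may not belong to the named genes. No measure over all the pairs was computed.

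In the trmt family, mostly methyltransferases, 12 of 17 genes (70.6%) carried E2F1 at an end, against 34.8% of other genes and 45.2% with a symbol. The highest was trmt6, the partner subunit of an enzyme that methylates an adenosine of the T loop, with folds of 10.2 and 13.9 (chromosome 5, 25119794 to 25120707). Its catalytic partner trmt61a had 5.95 and 4.62, so E2F1 was at both genes of the pair but at unlike height. The second was trmt2a, which methylates a uridine of the T loop, with 10.1 and 11.8 from 74 and 106 fragments. At trmt13, a ribose methyltransferase, the folds were 8.19 and 7.90. The activator trmt112, a small subunit that several methyltransferases need, had 6.98 and 8.01, and its partner trmt11 had 5.63 and 5.31. Between these lay trmt9b, trmt44, trmt10b, trmt1l and trmt5, with mean fold percentiles from 53.9 to 77.9, and at the bottom stood trmt1, a guanosine dimethylase, with folds of 4.61 and 3.67.

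Those without one within 1 kb were trmt10a, trmt10c, trmt12, trmt2b and trmt61b. Of these, trmt10c, trmt2b and trmt61b each had an E2F1 region between 1 and 5 kb away, at 3590, 2557 and 3301 bp. The one near trmt61b was tall, with folds of 12.9 and 15.2. Among other genes, 34.8% had E2F1 within 1 kb and 43.5% within 5 kb, and no share between these limits was computed. Replicate 1 held a separate peak 172 bp from an end of trmt61b (fold 3.61), and replicate 2 held one 322 bp from trmt10a (4.77). For trmt12 the nearest lay 41450 bp away and for trmt10a 172037 bp.

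Elongator genes held some of the tallest E2F1 regions. The subunits elp4, elp5 and elp6 form an accessory subcomplex beside the catalytic one. The fold at elp5 was 18.4 in replicate 1 and 17.9 in replicate 2 (chromosome 3, 153383083 to 153383741), rank 28 of all E2F1 regions, with the summit 27 bp from the end. At elp3, the catalytic subunit, it was 12.5 and 13.2, and at elp6 it was 10.3 and 10.2. The genes elp2 and elp4 had a peak in replicate 2 alone, 90 and 19 bp from an end, with folds of 6.25 and 4.28. Measured from the gene ends, their nearest reproducible summits lay 66154 and 34744 bp away. Inside elp4 lay 2 reproducible E2F1 summits, more than 1 kb from both ends.

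Pseudouridine synthases carried E2F1 at 4 of 5 genes, beside 34.8% of other genes and 45.2% of those with a symbol. At pus3 the folds were 8.86 and 6.66 and at pus7 7.33 and 7.0, while pus7l (4.70 and 4.76) and pus10 (4.69 and 4.65) were low in both libraries. The fifth, pus1, had a peak 15 bp from its end in replicate 2 alone (fold 5.06) and a reproducible region 3642 bp away. Both deaminase genes had E2F1, but classes this small say little beside those shares. For adat2, the catalytic subunit of the enzyme that makes inosine at the wobble base, the folds were 7.17 and 6.58. For adat1, which edits an adenosine beside the anticodon of alanine tRNA, they were 5.62 and 6.15, with the summit 3 bp from the gene's end.

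The regions sat tightly on the gene ends, and always on 1 end. The summit lay a median of 129 bp from the end, as at other genes with E2F1 (131 bp), and within 250 bp at 41 of the 49. Among the farthest was the summit at sars1, 689 bp from the end. The summit was inside the gene at 27 (55.1%) and outside at 22, near the 58.2% inside at other genes with E2F1. Regions at both ends were found at 0 of the 49, a count not set beside other genes. Summits of the replicates lay a median of 54 bp apart. Away from the ends E2F1 was sparse. A summit inside the gene more than 1 kb from both ends was found at 4 of the 70 genes (5.71%), aars2, elp4, farsb and lars2. The shares were 11.7% of other genes and 14.5% of those with a symbol.

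**Figure D4:**
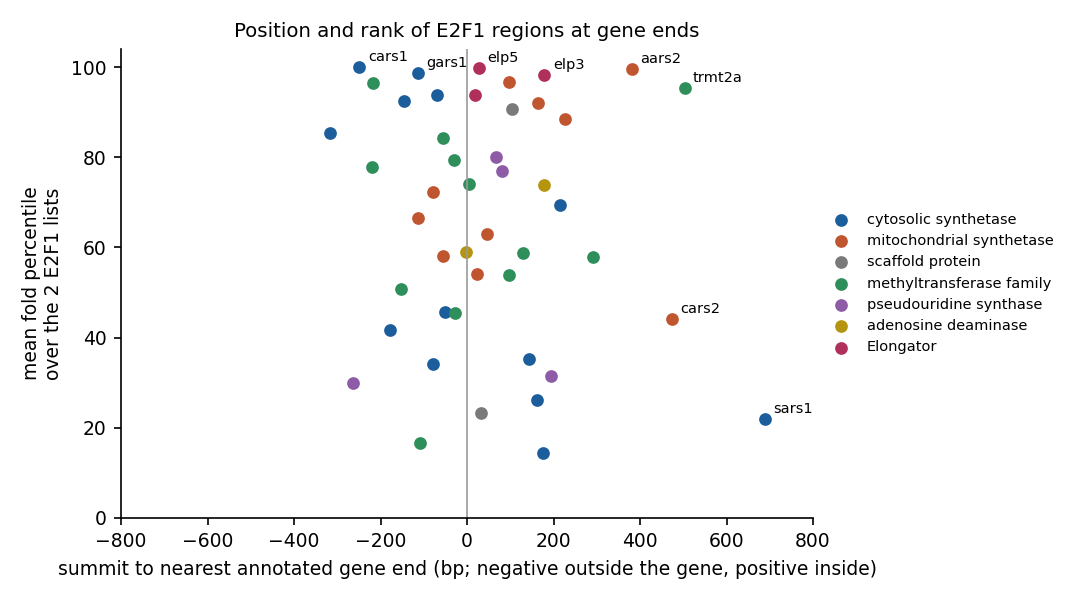
Position of the E2F1 summit relative to the nearest annotated gene end (bp, negative outside and positive inside the gene) against the mean fold percentile over both E2F1 lists, for 46 of the 49 genes, coloured by role. Summits cluster around the gene end, and high and low regions occur on both sides of it.

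Many of these genes have an end close to that of a neighbour, in an orientation that the gene table does not give. Of the 70, 36 (51.4%) had an end within 1 kb of an end of another protein-coding gene, against 19.0% of other genes and 19.6% of those with a symbol. E2F1 was at 27 of the 36 (75%), against 52.5% of other genes so placed and 64.1% of those with a symbol. Among the 34 without such a neighbour it was at 22 (64.7%), against 30.7% and 40.6%. This division was made after the values were seen. The share among the 70 genes was thus above both comparison groups with and without a close neighbour, and the part of the neighbours in the counts was not tested.

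**Figure D5:**
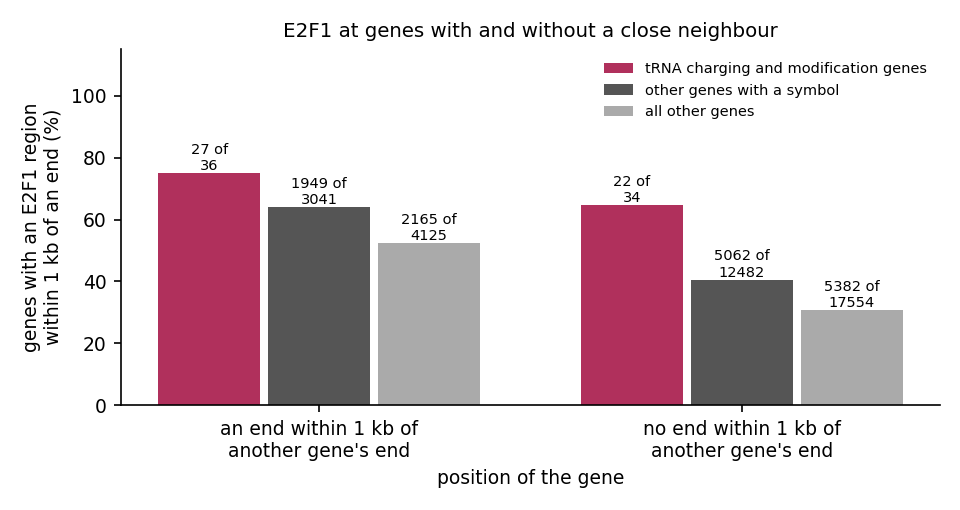
Share of genes (%) with a reproducible E2F1 region within 1 kb of an end, for genes that do and do not have an end within 1 kb of another gene's end, with counts above the bars. The 70 tRNA charging and modification genes are highest in both classes, at 75% and 64.7%.

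At such ends the region cannot be assigned to 1 gene. The E2F1 summit was also within 1 kb of another gene's end at 24 of the 49 (49.0%), against 23.9% of other genes with E2F1 at an end. At 11 of the 24 the other end was the nearer. The region of trmt6 lay 154 bp from mcm8, a helicase gene of DNA repair, and that of trmt2a lay 400 bp from ranbp1, a regulator of nuclear transport. The summit at rars2 was 46 bp from that gene and 49 bp from orc3, a subunit of the origin recognition complex. Other pairs were yars2 with cdpf1, fars2 with lyrm4, aars1 with exosc6, pus10 with pex13 and pars2 with ttc4. The tall regions of cars1, elp5, aars2, gars1 and elp3 had no other gene end within 1 kb.

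OTX1 regions at the ends of these genes were few, and their folds were of middle rank. Within 1 kb they were at trmt6, aimp1 and trmt10c, each of which has a close neighbour. At trmt6 the OTX1 folds were 4.63 and 4.92 from 11 fragments in each library, with the summit 48 bp from trmt6 and 15 bp from mcm8. It overlapped the E2F1 region, with summits 169 bp apart. At aimp1 they were 4.90 and 5.59, and that region overlapped E2F1 with summits 273 bp apart. At trmt10c they were 5.17 and 4.86, with the summit 52 bp from the gene and 43 bp from txnl4b, and no E2F1 region overlapped it. Their mean fold percentiles were 39.5, 54.7 and 48.2, near the middle of the OTX1 lists, with a median of 48.2 against 54.6 at other genes with OTX1 within 1 kb. Of the 3, 0 were kept under all 9 alternatives other than a wider window. Since the factors were precipitated from separate embryos, an overlap of regions does not show both on the same DNA. A further 8 genes had an OTX1 peak within 1 kb without a reproducible region: cars1, elp4, lars2, pus3, sars1, trmt10b, trmt61b and trmt9b. The other 59 had none in either list.

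The 12 genes whose OTX1 region lay between 1 and 5 kb away included the tallest OTX1 signals. At hars the folds were 7.09 and 9.64 with the summit 4504 bp from an end, and at pus7 they were 7.41 and 7.65 at 1362 bp. At sars2 they were 6.34 and 8.04 at 4276 bp. None of these 3 overlapped an E2F1 region, and all lay inside the gene. Lower ones were at farsa, trmt12, adat2, mars2, elp2, rars1, wars1 and trmt1l, with folds from 3.92 to 6.56 over both libraries. Inside the gene and more than 1 kb from both ends, 15 of the 70 genes (21.4%) had an OTX1 summit. This was near the 22.3% of other genes and below the 27.9% of those with a symbol. Both factors lay within 5 kb of an end at 11 genes. Neither lay there at 12: ears2, elp4, hars2, iars1, kars1, lars1, lars2, nars2, tars2, trmt10a, vars1 and vars2. Of these 12, elp4 and lars2 held summits of both factors deeper inside the gene. The counts of 11 and 12 were not set beside other genes, so they are not read as particular to the list.

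Other genes of tRNA maturation, which the naming rule leaves out, also often had E2F1 at an end. A list of such genes was drawn up by role, 97 of them were found in the gene table, and 61 (62.9%) had an E2F1 region within 1 kb, beside 34.8% of the genes outside the 70 and 45.2% of those with a symbol. OTX1 was at 6 of them (6.19%), near the 7.19% and 8.45% of those genes. By role, E2F1 was at 8 of 10 genes of tRNA splicing and ligation, 14 of 18 other methyltransferase genes, 11 of 18 of end processing and export and 10 of 16 of charging accessories and quality control. It was at 13 of 25 genes of other uridine modification and 5 of 10 of threonylcarbamoyl and isopentenyl adenosine formation, both close to the share of genes with a symbol. The 6 highest were ctu1, which thiolates the wobble uridine that Elongator modifies (folds of 13.3 and 13.9), wdr4, the partner of a guanosine methyltransferase (14.0 and 12.7), and trub2 (11.2 and 12.3) and trub1 (10.1 and 11.2), pseudouridine synthases. Next came ftsj1, a ribose methyltransferase (10.4 and 10.8), and zbtb8os, the archease of tRNA ligation (9.11 and 10.5). Some of these regions cannot be assigned to 1 gene. Another gene's end was nearer to the summit at ctu1 (mettl14, 84 bp), ftsj1 (sft2d3, 226 bp) and zbtb8os (rbbp4, 13 bp). The summit at wdr4 also lay 43 bp from ndufv3. The OTX1 genes included pop7, rpp21, elac1, mettl2b and mettl1, with OTX1 folds from 4.30 to 7.66, and these 5 also had E2F1. At elac1 and mettl1 the factors lay at opposite ends of the gene. The third auxiliary protein of the multisynthetase complex, eef1e1, had E2F1 folds of 5.12 and 3.99.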

How the data were processed

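Chromatin immunoprecipitation with sequencing was analysed from 4 deposited peak lists, 1 per library. Tools listed without roles in the submitters' processing notes were deepTools, fastp, MACS2 2.2.7.1 and Bowtie2 2.4.5. Any control used in calling, not given in the sources used here, would enter the fold. Each deposited peak has a score, a fold (ratio over local background) and the −log10 of its p-value and q-value. All are the authors' values, used only to rank, filter or describe peaks of the same list. The largest q was 0.0492 and 0.0470 for E2F1 and 0.00999 and 0.00977 for OTX1, so the factors were called at different thresholds.

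Fold and p were solved for the whole pileup at each summit, and the solution missed the deposited −log10 p by 4.56e-05 or less. Pileups carry counting error, and copies made by amplification are not independent fragments. Peaks of both lists sharing at least 1 bp were joined, with the summit of higher fold percentile. Python 3.11.15, pandas 2.3.3 and scipy 1.17.1 were used, and joining and solving were tested on simulated data. Positions are 1-based on xenTr10, whose name is in the OTX1 peak names. Genes came from the RefSeq table of UCB_Xtro_10.0, without strand or sequence, so no motif was searched. The members and lists were chosen with earlier results of these data known. Named were members by role, apart from a few that are not reported here, most fully the top 3 per role and those with OTX1, and of the other tRNA genes the top 6 and those with OTX1. Libraries were compared by an exact permutation test. The alternatives tried are given in the closing section.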

Additional observations from a re-analysis of the deposited data

How the results depend on the processing

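The E2F1 counts stayed within 1.5 times their values under the alternatives run. Within 1 kb they ran from 33 (summits of both lists within 100 bp) to 55, and 53 and 55 were the values without one replicate; within 5 kb they ran from 40 to 61, and 58 and 61 without one replicate. In every alternative run the share of the 70 genes was above that of all other genes. Genes with a symbol were compared only in the other windows. There the 70 genes had 65.7%, 71.4% and 82.9% within 500 bp, 2 kb and 10 kb, against 41.5%, 47.7% and 60.9%. Of the 49 genes, 38 kept E2F1 with a −log10 q minimum of 5 and 42 without peaks in a high local background. Under all 9 alternatives other than a wider window 21 kept it, a count not set beside other genes. Leaving out either replicate, or using the nearest edge of a region in place of its summit, removed none. The genes cars1, gars1 and aars2 were among the 7 lost without high-background peaks. The removed peaks were tall, with median pileups of 42 and 47 against 15 and 15 in the E2F1 lists. The median fold percentile moved from 66.5 to 77.5 with that minimum and to 58.9 without high-background peaks, and was 59.0 and 67.7 without one replicate; the median of other genes with E2F1, 67.0, was 74.8, 63.5, 63.1 and 66.4 under these settings.

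The OTX1 count within 1 kb, 3, was 1 with a reciprocal overlap of 50% (trmt10c) and 1 with lists of equal size (aimp1), 8 in a 2 kb window, and 6 and 9 without one replicate. Within 5 kb the OTX1 count was 15, with 21 without replicate 1, 27 without replicate 2 and 23 in a 10 kb window. In the 2 kb and 10 kb windows the shares were 11.4% and 32.9%, against 11.6% and 34.3% of other genes. Without replicate 1 they were 8.57% within 1 kb and 30.0% within 5 kb, against 11.8% and 32.8%. Without replicate 2 they were 12.9% and 38.6%, against 12.6% and 33.1%. With the reciprocal overlap and with lists of equal size the share within 1 kb was 1.43%, against 5.38% and 3.81%. The causes of these changes in the OTX1 counts were not tested. With the replicate number as a replicate block the difference between factors was again 46.5 genes, with an exact sign-flip p = 0.5, the smallest that 2 pairs allow; the numbers are not stated to pair the libraries. It was 48.5, 35.5 and 39 with lists of equal size, within 5 kb and with the −log10 q minimum. The start of a gene alone was not run, since the gene table has no strand.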

Other observations

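The tRNA genes themselves were counted by their distance to each factor, with no comparison set of positions. Of 2366 annotated tRNA genes on the chromosomes, 93 (3.93%) lay within 1 kb of an E2F1 summit and 36 (1.52%) within 1 kb of an OTX1 summit. Within 5 kb the counts were 282 (11.9%) and 215 (9.09%), from 96 and 59 distinct regions. Chromosome 3 held 1242 of these genes (52.5%). Clustered tRNA genes count the same region many times, and the sources used here do not say how reads that map to several copies were treated.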
